A study of Homo sapiens with 6 samples.

Results

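The genes described here are 38 adaptor and scaffold proteins of focal adhesions and caveolae, taken from a list of names that leaves out the integrins and the FAK and SRC kinases. The array annotation named 19775 genes by at least 1 probe set carrying a single symbol, and 36 of the 38 were among them. Each gene was read from its probe set with the highest mean log2 signal over all 6 arrays. FLNA and FLNC, the filamins that crosslink actin, had no such probe set and were not analysed here. The cells were OVCA432, an established line of high grade serous ovarian cancer, and their RNA was hybridised to Affymetrix U133 Plus 2.0 arrays. Cells were grown in medium with serum, and all cultures were deprived of serum for 24 h. The MFAP5 group (3 arrays) then received recombinant human MFAP5, a secreted microfibril glycoprotein, at 200 ng/mL in serum-free RPMI, and the control group (3 arrays) received solvent in the same medium. RNA was taken 48 h later. The comparison therefore covers 1 cell line, 1 dose and 1 time, with samples titled as numbered replicates, and the number of arrays limits its precision.

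Focal adhesions link integrins in the cell membrane to actin filaments. Talins and kindlins bind integrin tails and switch the receptors on, vinculin ties talin to actin, and a second layer of LIM-domain, Ena/VASP and tensin proteins responds to the tension that the filaments carry. Caveolae are small membrane pits built from caveolins and cavins, which buffer membrane tension and share signalling partners with focal adhesions.

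The background was taken as the brightest of 27 Bacillus control probe sets, which human RNA should not light, and each array had 27209 to 36073 probe sets brighter than it. Log2 signals of the tested probe sets had correlations of 0.984 to 0.988 within the groups and 0.967 to 0.971 between them, values that describe probe sets and not independent replicates. The log2 ratio of 3' to 5' control signal ranged from -0.20 to -0.058 for GAPDH and from 0.21 to 0.34 for ACTB, with the groups overlapping in both. All 6 epithelial markers (EPCAM, KRT8, KRT18, KRT19, KRT7 and CDH1) and all 4 serous markers (PAX8, MUC16, WFDC2 and MSLN) lay above that background on every array. Fibroblast markers summed to a signal of 262 to 305 in control and 265 to 371 in MFAP5 cells. Of the 6, COL1A1 (152 to 192) and COL1A2 (36.4 to 74.1) lay above background on all 6 arrays, LUM and PDGFRB on 1 array, and COL3A1 and DCN on none. The summed signal of the epithelial markers was 71740 to 81950 in control and 82200 to 90230 in MFAP5 cells. That of the serous markers was 11490 to 12820 and 14980 to 15860, but these did not move together. Mean signals went from 6680 in control to 9667 with MFAP5 for PAX8, 446 to 1618 for MUC16 and 706 to 1639 for MSLN. WFDC2 went the other way, from 4178 to 2457. The part of the epithelial and serous markers in the results below was not tested.

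With MFAP5, both caveolins and the actin regulator VASP were higher and kindlin-1 was lower. The talins, kindlin-2, the tested genes of the ILK complex and the alpha-actinins were not called on their brightest probe sets. Dimmer probe sets of TLN2, FERMT2, PARVA and PARVB were called, as given below. On bulk RNA a change in the number of cells that make a transcript and a change in RNA per cell cannot be told apart. Of the 38 genes, 34 passed the brightness filter, which kept probe sets at or above the median log2 signal. By limma with Benjamini-Hochberg adjustment over all 27307 probe sets tested (adjusted p below 0.05), 8 of the 34 rose, 1 fell and 25 were not called. The genes that rose were CAV1, CAV2, VASP, DOCK1, TGFB1I1, PDLIM5, LPP and VCL, and FERMT1 fell. Over all 12216 genes tested 14.6% rose and 15.3% fell, so that 29.9% were called, against 26.5% of these 34. The share called was near the background, with 23.5% higher and 2.94% lower. The median log2 fold change was 0.09 for the 34 genes and -0.01 for all genes. The MFAP5 and control signals did not overlap for 15 of the 34 genes (44.1%), 12 with MFAP5 above and 3 below, where 45.9% of all genes did not overlap (22.3% above and 23.6% below). The count of 15 became 23 without control replicate 3, where fewer arrays can overlap. The share of all genes under that setting is not given here, so 23 cannot be set against 45.9%. Of the 34 genes 5 were called with a change of 1.5-fold or more, where 10.3% of all genes were. Centring each array on its median log2 signal, which lowered the median change of all genes to -0.15, gave 4 higher and 6 lower among the 34 genes, where 9.15% of all genes were higher and 28.1% lower. Centring on hybridisation controls gave 4 higher and 1 lower, where 7.49% of all genes were higher and 8.94% lower.

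**Figure D1:**
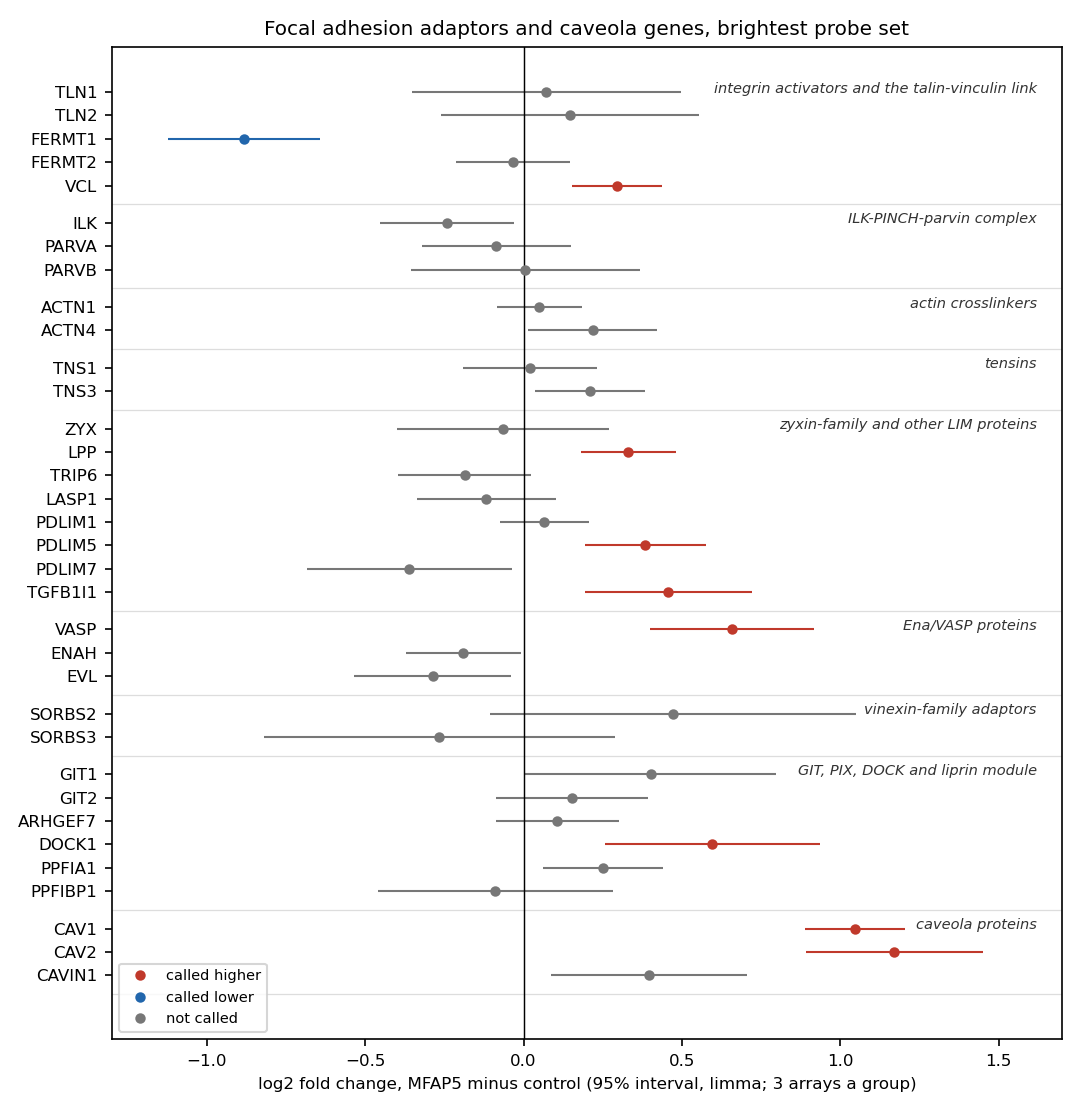
Log2 fold change (MFAP5 minus control) of the brightest probe set of the 34 genes past the filter, with 95% limma intervals, ordered by role. The 2 caveolins lie farthest to the right at 1.05 and 1.17, and FERMT1 is the point farthest to the left at -0.88.

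Kindlin-1 was the only integrin activator called on its brightest probe set. FERMT1, which encodes this kindlin of epithelial cells, had signals of 569, 576 and 527 in the control samples and 299, 315 and 293 with MFAP5. Every MFAP5 array was below every control array. The mean fell from 557 ± 26.9 to 302 ± 11.7 (SD, n = 3 each), a 1.84-fold lower level (log2 fold change -0.88 ± 0.11 SE, limma adjusted p = 0.000306). The 2 other FERMT1 probe sets past the filter fell as well, by 0.95 and 0.73 on the log2 scale, although the former spread widely with MFAP5 (204, 73.4 and 132 against 253, 251 and 223 in control).

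Kindlin-2, encoded by FERMT2 and present in most adherent cells, did not show this change on its brightest probe set. Its signals were 3303, 3000 and 2770 in control and 3152, 2875 and 2834 with MFAP5, and the groups overlapped. The 95% interval of its log2 fold change was -0.21 to 0.15 (limma adjusted p = 0.809). A second FERMT2 probe set fell (976, 963 and 992 against 841, 742 and 745), with a log2 fold change of -0.33 and a limma adjusted p of 0.0185. The log2 change of FERMT1 was lower than that of FERMT2 by 0.85 within arrays (two-sided exact permutation test, p = 0.1, the smallest that 3 against 3 arrays allow, and 0.125 adjusted over 5 such gene pairs, a test added after the values were seen).

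**Figure D2:**
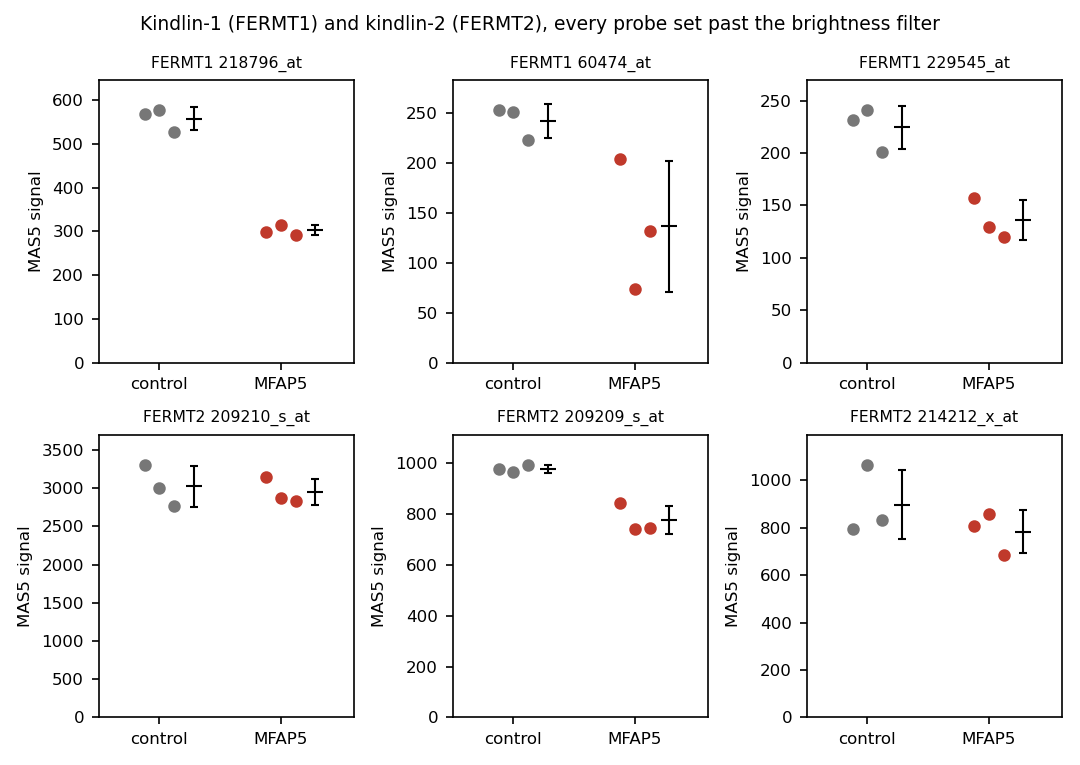
MAS5 signal (linear axis from 0) of each FERMT1 and FERMT2 probe set past the filter on the 3 control and 3 MFAP5 arrays, with mean and SD beside the points. On all 3 FERMT1 panels the MFAP5 points lie below the control points, while the brightest FERMT2 panel overlaps between 2834 and 3152.

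Neither talin was called on its brightest probe set. TLN1, the main talin of non-muscle cells, gave 197, 194 and 195 in control and 162, 265 and 202 with MFAP5. The control samples were nearly equal and the MFAP5 samples fell on both sides of them, so the 95% interval was wide, from -0.35 to 0.50. TLN2 gave 173, 238 and 206 in control and 199, 274 and 210 with MFAP5 (limma adjusted p = 0.601). Another TLN2 probe set rose, from 115, 116 and 116 to 212, 178 and 161, a 1.58-fold change (limma adjusted p = 0.0227). Vinculin was among the genes that rose. The VCL signals were 10797, 10947 and 10518 in control and 14131, 12978 and 12516 with MFAP5, without overlap, a 1.23-fold rise (log2 fold change 0.29 ± 0.06 SE, limma adjusted p = 0.00738). The VCL call was lost with centring on array medians (adjusted p = 0.0774), centring on hybridisation controls (0.198) or no intensity trend (0.0557). Its only other probe set was below the filter at 5.59 to 22.2 on all arrays, and averaging both gave -0.20 (adjusted p = 0.607).

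The complex of ILK, PINCH and parvin, which couples integrins to actin behind the kindlins, had no gene called on its brightest probe set. ILK, its pseudokinase core, gave 1514, 1359 and 1267 in control and 1273, 1145 and 1082 with MFAP5. The highest MFAP5 array only just reached the lowest control array, and the change was small (log2 fold change -0.24 ± 0.09 SE, limma adjusted p = 0.0896). PARVA, alpha-parvin, had 972, 1036 and 799 in control and 898, 855 and 876 with MFAP5, and PARVB, beta-parvin, had the same group mean of 259.8 in both (SD 39.9 and 31.4). A dimmer probe set of each parvin fell, PARVA by 0.47 and PARVB by 0.59 on the log2 scale (limma adjusted p = 0.0166 and 0.0218). LIMS1, which encodes PINCH1, had signals of 4.43 to 40.6 on its brightest probe set and was not tested, and probe sets that also carry LIMS3 or LIMS4 were left out by the rule.

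The actin crosslinkers and tensins had no called gene. ACTN1, a major alpha-actinin of stress fibres, had signals of 7747, 7339 and 8116 in control and 8001, 8019 and 7972 with MFAP5. Its 95% interval, -0.08 to 0.18, was among the narrowest of the 34 genes, and the 2 further ACTN1 probe sets that were tested gave 0.036 and 0.047 (log2 fold change, not called). ACTN4 gave 1716, 1863 and 1889 in control and 2106, 2382 and 1893 with MFAP5 (limma adjusted p = 0.111). The groups did not overlap, but the lowest MFAP5 array and the highest control array were almost equal. TNS3, a tensin that binds integrin tails and actin, gave 12670, 13235 and 11034 in control and 15123, 13927 and 13571 with MFAP5 (log2 fold change 0.21 ± 0.08 SE, limma adjusted p = 0.0779). TNS1 gave a 95% interval of -0.19 to 0.23. TNS4, a short tensin of epithelial cells that lacks the actin-binding part, was dim and not tested, with 36.5, 33.3 and 41.1 in control and 95.3, 55.0 and 63.4 with MFAP5. All 3 MFAP5 values of TNS4 were above the control values, and with no brightness filter its limma adjusted p was 0.15 (1.88-fold).

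Among the 8 LIM-domain genes, 3 rose and the other 5 were not called. TGFB1I1, which encodes the paxillin relative Hic-5, gave 343, 361 and 433 in control and 525, 521 and 507 with MFAP5. The MFAP5 samples lay close together and above all controls, and the rise was 1.37-fold (log2 fold change 0.46 ± 0.12 SE, limma adjusted p = 0.0185). Its call was lost without control replicate 1 (adjusted p = 0.0682), control replicate 2 (0.0622) or MFAP5 replicate 2 (0.063), with centring on array medians (0.0834) and on hybridisation controls (0.157). PDLIM5, a PDZ-LIM scaffold on actin filaments, gave 1322, 1265 and 1495 in control and 1755, 1681 and 1883 with MFAP5, a 1.30-fold rise without overlap (limma adjusted p = 0.00915). PDLIM5 had 5 further probe sets bright enough to test, with no call among them, and their log2 fold changes ran from -0.36 to 0.08. LPP, a zyxin relative at adhesions and cell junctions, gave 2130, 2096 and 2179 in control and 2838, 2638 and 2586 with MFAP5, a 1.26-fold rise (limma adjusted p = 0.00555). A second LPP probe set rose in the same measure, from 1418, 1450 and 1488 to 1906, 1859 and 1815 (1.28-fold, limma adjusted p = 0.004), and the 4 others past the filter were not called. Both calls, PDLIM5 and LPP, were lost with centring on array medians (adjusted p = 0.0814 and 0.0691), with centring on hybridisation controls (0.178 and 0.237) and with the mean of all probe sets, where the log2 fold changes were -0.25 and -0.15. That mean took in probe sets below the brightness filter, which for LPP had signals of 3.99 to 40.4. For PDLIM5, probe sets past the filter also went the other way. The second brightest gave 1356, 1129 and 1308 in control and 1051, 1048 and 1080 with MFAP5, without overlap. It was not called (log2 fold change -0.25, limma adjusted p = 0.063), so the PDLIM5 probe sets disagreed.

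The other LIM proteins were not called. ZYX, zyxin, a sensor of tension on actin, had 310, 335 and 310 in control and 270, 373 and 279 with MFAP5. MFAP5 replicate 2 was the highest of the 6, and the other MFAP5 samples were the lowest. TRIP6, a zyxin relative, had 1567, 1425 and 1356 in control and 1418, 1162 and 1248 with MFAP5 (limma adjusted p = 0.183). LASP1, an actin-binding LIM and SH3 protein, spread more within groups than between them, with 5001, 5819 and 6543 in control and 5800, 5047 and 5095 with MFAP5. PDLIM1 had a 95% interval of -0.07 to 0.21. PDLIM7 gave 386, 344 and 304 in control and 306, 252 and 247 with MFAP5 (log2 fold change -0.36 ± 0.15 SE, limma adjusted p = 0.0993), and the 4 further PDLIM7 probe sets that were tested ranged from -0.56 to -0.02 in log2 fold change, with 1 called lower.

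Among the Ena/VASP proteins, which elongate actin filaments, VASP rose and its relatives ENAH and EVL were not called. VASP, read from its only probe set, gave 307, 274 and 279 in control and 428, 472 and 456 with MFAP5. No array of one group reached the other, and the mean went from 286 ± 17.5 to 452 ± 22.2 (SD, n = 3 each), a 1.58-fold rise (log2 fold change 0.66 ± 0.12 SE, limma adjusted p = 0.00257). ENAH, which encodes Mena, gave 7409, 7168 and 8842 in control and 6898, 6609 and 6930 with MFAP5, all below control (log2 fold change -0.19 ± 0.08 SE, limma adjusted p = 0.116). A dim ENAH probe set went the other way (76.9, 64.7 and 70.8 against 107, 123 and 104, limma adjusted p = 0.0479), so the ENAH probe sets disagreed. EVL gave 772, 960 and 866 in control and 770, 723 and 634 with MFAP5, again all below control but by a narrow margin (limma adjusted p = 0.088). The other EVL probe set past the filter went the other way and was not called (log2 fold change 0.26, limma adjusted p = 0.387). On the brightest probe sets, the within-array difference between the log2 changes was 0.85 for VASP over ENAH and 0.95 for VASP over EVL (exact permutation p = 0.1 each, the smallest possible, 0.125 adjusted over the 5 pairs).

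The vinexin-family adaptors SORBS2 and SORBS3, which bind vinculin, were not called. SORBS2 gave 75.4, 78.2 and 80.2 in control and 76.4, 141 and 117 with MFAP5, and SORBS3 gave 170, 174 and 132 in control and 100.1, 188 and 119 with MFAP5. In both genes MFAP5 replicate 2 was the highest of the 6 arrays. Their intervals, -0.11 to 1.05 for SORBS2 and -0.82 to 0.29 for SORBS3, were wide and leave changes of 1.5-fold undecided.

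Of 6 genes that link adhesions to small GTPases and to their turnover, DOCK1 rose and 5 were not called. DOCK1, an activator of the GTPase RAC, gave 363, 268 and 309 in control and 493, 528 and 398 with MFAP5, without overlap. Its mean went from 313 ± 47.5 to 473 ± 67.2 (SD, n = 3 each), a 1.51-fold rise (log2 fold change 0.60 ± 0.15 SE, limma adjusted p = 0.0176). The call was lost without control replicate 2 (adjusted p = 0.0645), MFAP5 replicate 1 (0.0503) or MFAP5 replicate 2 (0.0778) and when its probe sets were averaged (0.59). That average took in dim DOCK1 probe sets below the filter. The other DOCK1 probe set past the filter had a log2 fold change of 0.43 and was not called. GIT1, a GTPase-activating protein for ARF and a scaffold for PIX, gave 133, 171 and 155 in control and 220, 214 and 173 with MFAP5 (limma adjusted p = 0.129). ARHGEF7, which encodes beta-PIX, gave 1039, 1136 and 1119 in control and 1297, 1125 and 1131 with MFAP5, with overlap (limma adjusted p = 0.407).

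Probe sets of GIT2 and of the liprins, scaffolds at the edges of adhesions, disagreed within a gene. The brightest GIT2 probe set had a log2 fold change of 0.15 (limma adjusted p = 0.331), while another fell from 396, 405 and 241 to 179, 113 and 148, a 2.35-fold lower level (limma adjusted p = 0.00412). PPFIA1, liprin-alpha1, gave 2415, 2542 and 2850 in control and 2821, 3248 and 3223 with MFAP5 on its brightest probe set (limma adjusted p = 0.0542). A second PPFIA1 probe set fell, from 856, 839 and 892 to 662, 639 and 658 (limma adjusted p = 0.00655), and another rose, from 478, 470 and 522 to 704, 627 and 586 (limma adjusted p = 0.0265). PPFIBP1, liprin-beta1, was not called on its brightest probe set (limma adjusted p = 0.738), but another rose from 188, 224 and 287 to 446, 396 and 419 (1.83-fold, limma adjusted p = 0.00354). The level of these 3 genes as a whole was therefore not settled by the array.

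Over the 36 genes with a probe set, 135 probe sets carried their symbols and 93 passed the filter. Of these, 16 rose and 9 fell, 26.9% in all, where 25.2% of all probe sets tested were called. Of the 25 genes not called on the brightest probe set, 10 had another probe set called, and 15 had none. Of the 9 called genes, 6 had another probe set past the filter, and for 4 of them (FERMT1, LPP, CAV1 and CAV2) at least 1 was called the same way.

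**Figure D3:**
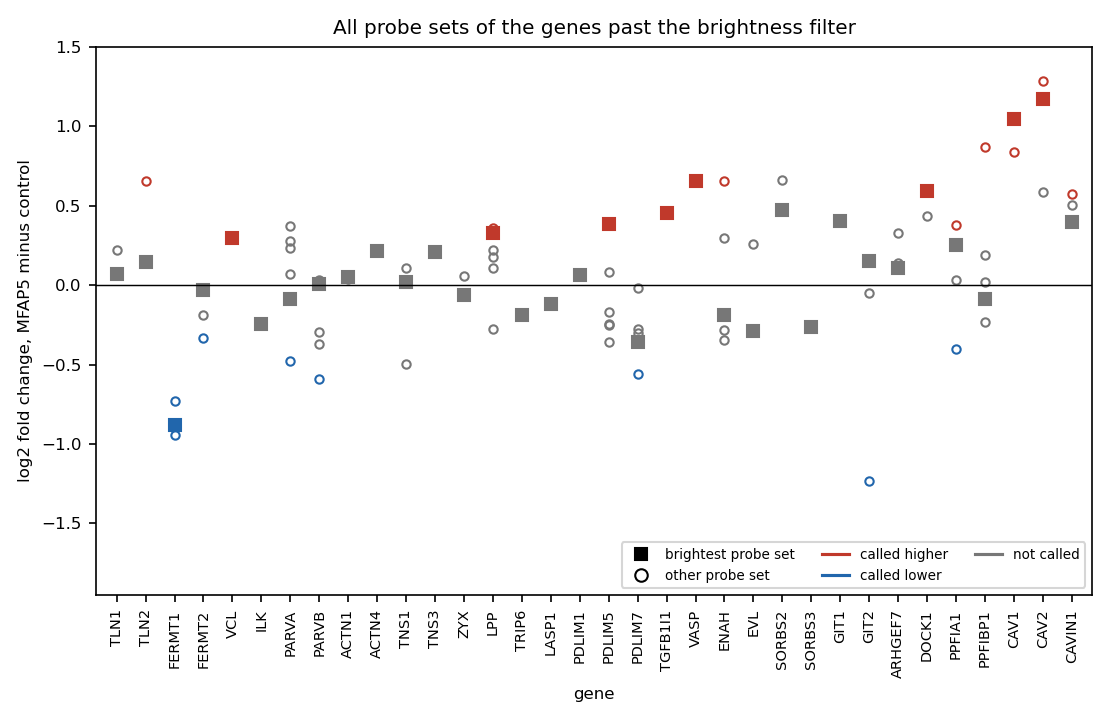
Log2 fold change (MFAP5 minus control) of all 93 probe sets past the filter, 1 column a gene, with filled squares for the brightest probe set and open circles for the others. PPFIA1 has probe sets called in both directions, and a GIT2 circle at -1.23 is the lowest point.

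The caveolins had the largest changes of the list. CAV1, the protein that builds the caveola coat, gave 2197, 2272 and 2502 in control and 4601, 4979 and 4804 with MFAP5. The groups were far apart, and the mean went from 2324 ± 159 to 4795 ± 189 (SD, n = 3 each), a 2.07-fold rise (log2 fold change 1.05 ± 0.07 SE, limma adjusted p = 6.7e-06). The other CAV1 probe set rose from 2294, 2352 and 2314 to 3851, 4198 and 4391 (1.78-fold, limma adjusted p = 2.46e-05). CAV2, the partner that forms hetero-oligomers with CAV1, gave 1859, 1693 and 2395 in control and 3891, 4600 and 4805 with MFAP5. Its mean went from 1983 ± 367 to 4432 ± 480 (SD, n = 3 each), a 2.25-fold rise (log2 fold change 1.17 ± 0.13 SE, limma adjusted p = 0.000133). A second CAV2 probe set, nearly equal on the control arrays, rose from 886, 882 and 879 to 2007, 2233 and 2227 (2.44-fold, limma adjusted p = 2.77e-06). The remaining CAV2 probe set was dim and not called (97.7, 86.9 and 117 against 130.4, 168 and 154, limma adjusted p = 0.0604), although its groups did not overlap either.

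CAVIN1, the cavin that coats caveolae and is needed for their formation, was not called by its brightest probe set. This gave 472, 429 and 442 in control and 730, 543 and 514 with MFAP5, all above control, with MFAP5 replicate 1 standing apart (log2 fold change 0.40 ± 0.14 SE, limma adjusted p = 0.0621). Of 2 further CAVIN1 probe sets, 1 rose (149, 179 and 143 against 239, 201 and 261, limma adjusted p = 0.0342) and 1 did not pass (124, 100.2 and 99.7 against 147, 143 and 170, limma adjusted p = 0.0791). Without MFAP5 replicate 1 the log2 fold change of the brightest probe set was 0.24 (adjusted p = 0.175), and without MFAP5 replicate 3 it was 0.49 and called (0.0439). CAVIN1 was also called with the mean of all probe sets (0.0249) and with the replicate number as a block (0.0281). The log2 change of CAV1 exceeded that of CAVIN1 by 0.65 (exact permutation p = 0.1, the smallest possible) and that of CAV2 by 0.77 (p = 0.2), or 0.125 and 0.2 adjusted over the 5 pairs. Caveolins are abundant in fibroblasts and endothelium. Of the fibroblast markers, COL1A1 and COL1A2 were above background on every array, with overlapping groups, and the part of such cells in the caveolin values was not tested. The 3 endothelial markers (PECAM1, VWF and CDH5) summed to 125 to 197 in control and 172 to 224 with MFAP5, and none lay above background on all 6 arrays. The same held for the 2 leukocyte markers measured, PTPRC and CD3E (7.94 to 72.9 in control and 36.8 to 84.8 with MFAP5).

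**Figure D4:**
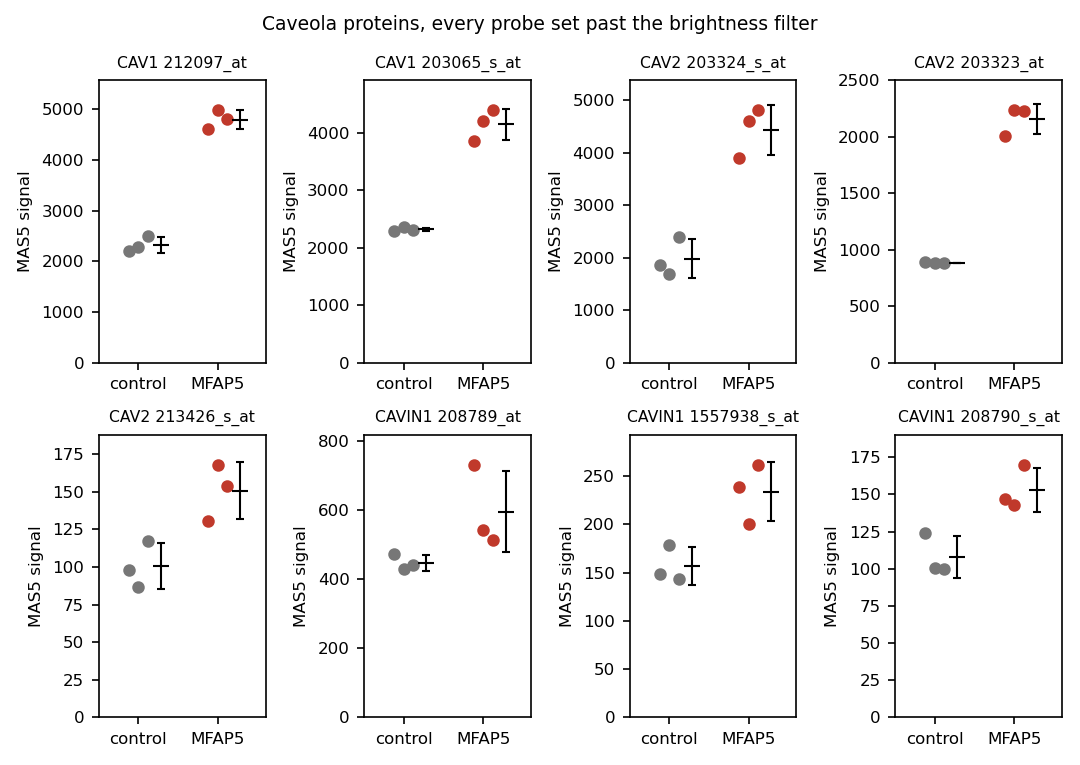
MAS5 signal (linear axis from 0) of each CAV1, CAV2 and CAVIN1 probe set past the filter on the 3 control and 3 MFAP5 arrays, with mean and SD beside the points. In all 8 panels the MFAP5 points lie above the control points, with the widest gaps for CAV1 and CAV2.

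CAV2 and CAV1 are neighbours on chromosome 7, where the order of protein-coding genes in RefSeq (GRCh38.p14) is TFEC, TES, CAV2, CAV1, MET and CAPZA2. These neighbours were looked up after the caveolin values were seen. MET, the receptor for hepatocyte growth factor, gave 182, 116 and 146 in control and 431, 465 and 448 with MFAP5, a 3.08-fold rise (limma adjusted p = 0.000134). TES, testin, a LIM protein of focal adhesions, gave 1890, 2034 and 2338 in control and 2292, 2537 and 2682 with MFAP5, which overlapped on its brightest probe set (1.20-fold, limma adjusted p = 0.0632), and its other probe set past the filter rose by 0.39 on the log2 scale. CAPZA2, an actin-capping subunit, was not called (1.09-fold, limma adjusted p = 0.307), and TFEC was below the filter. The 3 genes CAV2, CAV1 and MET thus lay side by side and were all higher, and no test of position was made.

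The sequences before the start sites of the caveolins are shown because both genes rose, and shared regulation of these neighbours was not tested. Those of LPP and TGFB1I1 are shown because these genes rose and hold a CArG box. This is the binding motif of serum response factor, which controls many actin and adhesion genes. ACTN1, which was not called, and FLNA, which was not measured, also hold one and are not shown. Each is the 250 bases before a start site in RefSeq (GRCh38.p14), 5' to 3' on the strand of the gene. Capitals mark GGGCGG, the GC box, on either strand in CAV2 and CAV1, and the CArG box in LPP and TGFB1I1.
CAV2 promoter, chr7:116499488-116499737, plus strand: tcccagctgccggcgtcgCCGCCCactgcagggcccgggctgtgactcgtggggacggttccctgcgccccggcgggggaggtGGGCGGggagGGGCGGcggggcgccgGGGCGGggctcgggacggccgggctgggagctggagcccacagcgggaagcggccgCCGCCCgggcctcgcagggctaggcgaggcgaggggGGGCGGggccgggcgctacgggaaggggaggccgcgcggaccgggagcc
CAV1 promoter, chr7:116524759-116525008, plus strand: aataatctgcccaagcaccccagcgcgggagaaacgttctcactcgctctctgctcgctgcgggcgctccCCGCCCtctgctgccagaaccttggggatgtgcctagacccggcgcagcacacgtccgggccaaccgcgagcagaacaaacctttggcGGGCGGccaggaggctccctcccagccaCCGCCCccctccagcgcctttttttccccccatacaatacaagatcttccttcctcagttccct
LPP promoter, chr3:188212462-188212711, plus strand: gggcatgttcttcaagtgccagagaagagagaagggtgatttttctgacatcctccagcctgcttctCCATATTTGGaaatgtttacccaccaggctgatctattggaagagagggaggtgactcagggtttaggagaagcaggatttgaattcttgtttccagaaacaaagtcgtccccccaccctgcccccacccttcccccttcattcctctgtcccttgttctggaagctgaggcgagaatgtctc
TGFB1I1 promoter, chr16:31472955-31473204, plus strand: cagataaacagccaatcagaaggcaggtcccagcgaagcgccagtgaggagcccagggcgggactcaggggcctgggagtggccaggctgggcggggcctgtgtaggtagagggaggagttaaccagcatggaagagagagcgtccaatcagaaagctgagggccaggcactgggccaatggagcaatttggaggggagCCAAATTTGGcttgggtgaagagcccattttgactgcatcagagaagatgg

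The printed CAV2 window held 6 GC boxes and the printed CAV1 window 3. CAV2 has 2 start sites in the table, CAV1 has 3, LPP has 7 and TGFB1I1 has 3, and for each gene the first window listed with the motif is printed. The first base of the CArG box lies 183 bases before the start in LPP and 51 in TGFB1I1. Of the 38 genes 33 had a window, and FERMT1, PARVA, TNS4, SORBS3 and CAVIN1 had none. On either strand, GC boxes were found in 28 of the 33 genes. Over the whole genome set they were in 42.6% of all 35116 windows and in 46.2% of all genes with a window. CArG boxes were found in 4 of the 33 genes (ACTN1, FLNA, LPP and TGFB1I1), against 1.16% of all windows and 1.44% of all genes. Of the 8 genes that rose 2 held one, and ACTN1, which held one, was not called. The TEAD motif GGAATG was found in 7 of the 33 genes, against 11.9% of all windows and 14.3% of all genes. The AP-1 motif TGANTCA was found in 6 (6.57% of windows, 8.06% of genes) and the CREB motif TGACGTCA in LPP and TRIP6 (1.65% of windows, 2.03% of genes). Genes with several start sites have more windows in which to match, the motifs were not screened for overlap with each other, and a match describes letters and not a bound site.

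A further list held 42 other focal adhesion and caveola genes, of which 30 passed the filter, 8 rose, 4 fell and 18 were not called. The share called was 40% against 29.9% of all genes (14.6% higher and 15.3% lower), and the median log2 fold change was 0.10. The list was chosen with earlier results of these data known, so no conclusion is drawn from the larger share. With the mean of all probe sets only 2 of its genes were higher and 2 lower, where 10.9% and 11.1% of all genes were. LAYN, the hyaluronan receptor layilin that binds talin, rose most, from 1013, 975 and 938 to 1999, 1849 and 1777 (1.92-fold, limma adjusted p = 2.64e-05). A second LAYN probe set was not called (log2 fold change -0.03), and with the mean of all probe sets its call was lost (adjusted p = 0.435). FHL2, a LIM protein that shuttles between adhesions and nucleus, rose from 5162, 5308 and 5203 to 8157, 7933 and 7834 (1.53-fold, limma adjusted p = 5.08e-05). PDLIM2 rose 1.47-fold (limma adjusted p = 0.00269). Its call was lost with the mean of all probe sets (log2 fold change 0.86, adjusted p = 0.0979), which took in a probe set below the filter. PDLIM4 rose 1.67-fold (limma adjusted p = 0.0491), and this call was lost without control replicate 1 (adjusted p = 0.122), control replicate 2 (0.0726), MFAP5 replicate 2 (0.114) or MFAP5 replicate 3 (0.15). It was also lost with no filter (0.0805), quantile normalization (0.0643), centring on array medians (0.0951), no intensity trend (0.121) and the mean of all probe sets (0.103).

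The 4 genes of that list that fell were CSRP2, CSRP1, RSU1 and CRKL. The cysteine-rich LIM proteins CSRP2 and CSRP1, which bind alpha-actinin and zyxin, fell by 0.82 and 0.63 on the log2 scale (limma adjusted p = 0.00184 and 6.21e-05). CSRP1 gave 5884, 5666 and 5545 in control and 3787, 3663 and 3560 with MFAP5, without overlap. RSU1, a partner of PINCH1 in the ILK complex, gave 1289, 1249 and 1674 in control and 1035, 925 and 1093 with MFAP5 (log2 fold change -0.46 ± 0.12 SE, limma adjusted p = 0.019), but leaving out MFAP5 replicate 2 ended the RSU1 call (adjusted p = 0.0799), as did fitting no intensity trend (0.0693). CRKL, an adaptor that carries signals from phosphorylated CAS and paxillin, fell by 0.27 (limma adjusted p = 0.0157), a call lost without MFAP5 replicate 2 (adjusted p = 0.0734) or 3 (0.0649), with centring on hybridisation controls (0.11) and with no intensity trend (0.0786). With the mean of its probe sets the CRKL change turned to 0.059 (adjusted p = 0.668), its second probe set lying at 0.38. PXN, paxillin itself, gave 1012, 1202 and 1100 in control and 1016, 1019 and 1053 with MFAP5 and was not called (limma adjusted p = 0.444), although its other probe set rose (log2 fold change 1.20). Without MFAP5 replicate 2 the list had 4 genes higher and 2 lower, where 10.6% of all genes were higher and 10.1% lower. Without control replicate 1 or 2 it had 4 or 5 higher and 4 lower, where 11.4% or 11.7% of all genes were higher and 10.5% lower.

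Of the 9 called genes of the main list, CAV1, CAV2, VASP and FERMT1 kept their calls under every alternative processing that gave a value. The log2 fold change ranged from 0.91 to 1.10 for CAV1, from 1.01 to 1.31 for CAV2, from 0.52 to 0.71 for VASP and from -1.02 to -0.79 for FERMT1. VASP was below the stricter brightness filter and had no value there. It had a single probe set, so the 2 settings that average or choose among probe sets could not change its log2 fold change. For CAV1 and FERMT1, keeping only probe sets whose name does not mark shared probes returned the probe set already reported. The calls of VCL, LPP, PDLIM5, TGFB1I1 and DOCK1 each depended on at least 1 choice named beside them above.

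**Figure D5:**
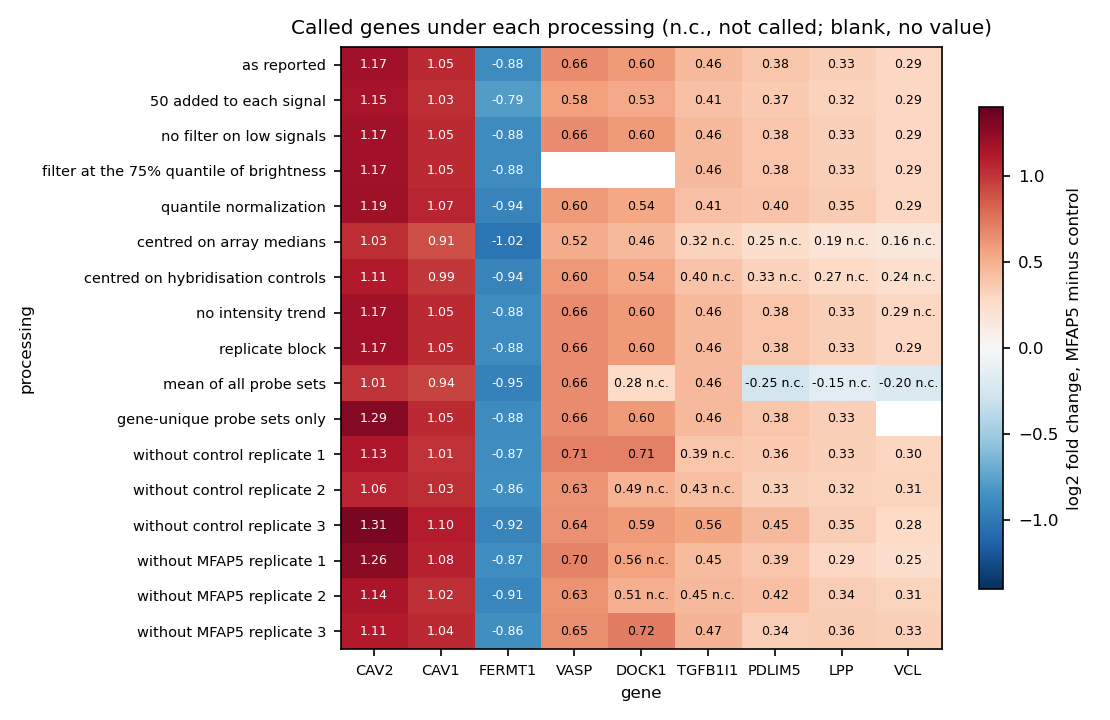
Log2 fold change (MFAP5 minus control, colour and printed value) of the 9 called genes under the processing reported and 16 alternatives, where n.c. marks a value that was not called and a blank cell no value. The CAV2, CAV1, VASP and FERMT1 columns hold no n.c. mark, and VCL, LPP and PDLIM5 turn negative with the mean of all probe sets, those below the filter included.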

How the data were processed

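Signals came from 6 Affymetrix U133 Plus 2.0 arrays, grouped by sample title. The table the authors deposited gives each probe set 1 intensity on a linear scale. MAS5, whose version is not given in the sources used here, is the tool named in the submitters' processing notes. The trimmed mean of every array (2% off each end) was 500.07, which shows a scaling of each array before deposit, and no further scaling was applied. Such scaling hides a shift of the whole transcriptome, and low signals are noisy once logged.

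From 54675 probe sets the 62 controls were dropped, and the 27307 whose mean log2 signal reached the median (signal 53.7) were tested. Groups were compared on log2 values with limma 3.58.1 in R 4.3.3 (lmFit, eBayes with an intensity trend, two-sided, Benjamini-Hochberg, adjusted p below 0.05). Residual degrees of freedom were 4 and prior ones 6.15, and the procedure was tested on simulated data. That simulation had independent noise and few changed probe sets, so it does not measure the error rate in these data. Genes were named through the platform annotation, and all 38 symbols were found in RefSeq (GRCh38.p14). Every gene of the list was accounted for, and of the further list up to 4 called genes in each direction with the largest change were named, besides PXN and TES, chosen after their values were seen, as were the pairs of genes compared within arrays. The members and lists were chosen with earlier results of these data known. Alternatives were 50 added to each signal, no filter or a filter at the 75% quantile, quantile normalization, centring on array medians or on 18 hybridisation control probe sets, no intensity trend, the replicate number as a block, the mean of all probe sets, each array left out, and, added after seeing the data, only probe sets whose name does not mark shared probes. The mean of all probe sets took in those below the filter, whose signals are noisy once logged.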

Additional observations from a re-analysis of the deposited data

How the results depend on the processing

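Of the 651 comparisons of a gene's value with an alternative, 567 kept direction and side of the threshold, 33 lost a call, 17 gained one and 34 changed sign. The number of list genes that rose (8) became 4 with centring on array medians (9.15% of all genes) and 4 with centring on hybridisation controls (7.49%). It became 5 with the mean of all probe sets (10.9%). The number that fell (1) became 6 with centring on array medians (28.1% of all genes) and 2 with the replicate block (18%). Genes without overlap (15) became 7 with centring on hybridisation controls, and 16 to 23 with 1 array left out, where fewer arrays can overlap. The shares of all genes without overlap under these settings are not given here. In the further list the number higher (8) became 5 with no filter (7.67% of all genes) and 4 with centring on array medians (9.15%). It was 4 with centring on hybridisation controls (7.49%), 4 with no intensity trend (11.4%) and 2 with the mean of all probe sets (10.9%). With gene-unique probe sets it was 4 (14.9%), and with 1 array left out 4 to 8 (10.6% to 14.4%). The number lower (4) became 7 with centring on array medians (28.1% of all genes) and 2 with no intensity trend (9.91%). It was 2 with the mean of all probe sets (11.1%), 2 with gene-unique probe sets (12.8%) and 2 to 5 with 1 array left out (10.1% to 15.1%). Over all genes, 1118 rose and 3438 fell with centring on array medians, 915 and 1092 with centring on hybridisation controls, and the number lower was 1211 with no intensity trend, 1229 with the mean of all probe sets, 1208 with gene-unique probe sets and 1229 to 1841 with 1 array left out. The causes were not tested.

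Log2 fold changes changed sign as follows. With quantile normalization TLN1 was -0.028, PARVB -0.092 and TNS1 -0.010. With centring on array medians TLN1 was -0.067, PARVB -0.13, ACTN1 -0.089, TNS1 -0.12, PDLIM1 -0.073 and ARHGEF7 -0.032. With centring on hybridisation controls PARVB was -0.051, ACTN1 -0.0069 and TNS1 -0.036. With the mean of all probe sets, those below the filter included, VCL was -0.20, PARVA 0.061, TNS1 -0.21, TNS3 -0.30, LPP -0.15, PDLIM5 -0.25, GIT2 -0.049, ARHGEF7 -0.056, PPFIBP1 0.15 and CRKL 0.059. With gene-unique probe sets PARVA was 0.23, TNS1 -0.50, EVL 0.26 and PPFIBP1 0.87, the last now called (adjusted p = 0.00354). With 1 array left out TLN1 ranged from -0.11 to 0.24, FERMT2 from -0.094 to 0.033, PARVB from -0.12 to 0.11, TNS1 from -0.013 to 0.082, ZYX from -0.21 to 0.020 and PPFIBP1 from -0.22 to 0.074.

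Samples with the same replicate number had deviations that correlated at 0.0887, -0.00715 and 0.166, and 3 of the 6 correlated best with their own number, so the numbers were not taken as pairs. With the replicate block 11 list genes rose and 2 fell, ILK among the latter (log2 fold change -0.24, adjusted p = 0.0283). Under the block 16.9% of all genes rose and 18% fell, against 14.6% and 15.3% as reported. No list gene called as reported lost its call under the block.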
